A study of Mus musculus with 4 samples.

Results

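Olfactory receptor genes of the mouse were examined for peaks of CTCF, the zinc finger protein that stops cohesin and so sets many chromatin loop anchors and domain borders. The 1106 receptor genes were the protein-coding genes with an Olfr symbol and number in the mm10 RefSeq gene table, and a peak belonged to them when it lay in such a gene or within 10 kb of it. By this rule 160 of 25625 peaks of the medial ganglionic eminence (MGE) list and 80 of 31886 peaks of the telencephalon list were members, 240 of 57511 in all. The genes formed 55 genomic clusters, within which neighbouring genes lay under 500 kb apart.

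The peaks came from chromatin immunoprecipitation and sequencing (ChIP-seq) of mouse tissue at embryonic day 13.5, with 1 CTCF library from the telencephalon and 1 from the MGE, its ventral part that produces many cortical interneurons. An input library of each tissue completes the 4 samples and is not analysed here. No genetic change or treatment is named for any group. The sources used here give neither the strain nor the number of embryos. The tissue protocol in the labels describes MGE dissection for every sample, so whether the telencephalon sample held the MGE is unclear, and the telencephalon track is named e14_ctcf_p001. The tissues were also prepared with different library kits, and the endings of the track names (p01 for MGE, p001 for telencephalon) may stand for different calling thresholds, so tissue, kit and calling cannot be told apart. With 1 library per tissue no test between tissues was possible. Intervals are exact 95% Clopper-Pearson intervals that cover counting error alone, and read depth is unknown because the lists hold positions only.

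Olfactory receptors are G protein-coupled receptors of the sensory neurons of the nose. Each such neuron expresses a single receptor allele and keeps the others silent, in compacted chromatin, and the forebrain tissues studied here lie outside that lineage. Receptor genes are short, mostly have their coding sequence in 1 exon, and stand in long arrays with few other genes between them. CTCF sites elsewhere in the genome often lie near promoters and at the borders of gene clusters.

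Receptor promoters were almost free of peaks. The RefSeq promoter table (GRCm38.p6, whose coordinates are those of mm10) held 944 promoter windows, each of 250 bases before and 50 after a gene start, for 940 of the 1106 receptor genes. An MGE peak overlapped 2 of the 944 windows (0.212%), and a telencephalon peak overlapped 1 (0.106%). Over all 32851 promoter windows the shares were 3.83% and 6.46%. No receptor promoter had a peak in both lists, and no overlapping peak had a partner. The bases before the start that these peaks covered are shown because, in the 944 windows, no other receptor promoter had a peak over it; they were chosen after their values were seen. All are read 5′ to 3′ on the gene's strand.
Olfr855, plus strand, chr9:19584435-19584510, under an MGE peak of 381 bp: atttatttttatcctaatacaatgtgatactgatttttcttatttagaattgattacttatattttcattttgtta
Olfr1434, plus strand, chr19:12279604-12279793, under an MGE peak of 244 bp: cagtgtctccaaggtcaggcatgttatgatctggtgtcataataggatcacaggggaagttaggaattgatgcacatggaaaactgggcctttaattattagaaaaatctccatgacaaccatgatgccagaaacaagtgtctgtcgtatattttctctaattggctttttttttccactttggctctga
Olfr173, minus strand, chr16:58797950-58798099, under a telencephalon peak of 150 bp: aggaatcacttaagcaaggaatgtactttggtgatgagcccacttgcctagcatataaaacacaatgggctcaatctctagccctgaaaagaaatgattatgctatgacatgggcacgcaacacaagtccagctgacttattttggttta

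Capitals would mark any of 4 words from the centre of the CTCF motif, sought on both strands, and none of the 3 stretches holds one. The words were AGGGGGC, its variant AGATGGC, a further variant AGGTGGC and the last variant AGAGGGC. The G and C content of the stretches was 17.1% at Olfr855, 39.5% at Olfr1434 and 41.3% at Olfr173. Whole receptor promoter windows had a median of 35% (interquartile range 31.7 to 39.7%), against 52.7% (45.7 to 61.7%) over all promoter windows. A CTCF word stood in 79 of 944 receptor windows (8.37%) and in 27.6% of all windows. Among the 1153 windows of any gene that a shared peak overlapped, 62.3% held a word, against 25.7% of windows with no peak in either list. A word is a match of letters and not a site, and no match says only that these letters are not in the window.

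The receptor windows, meaning the genes and 10 kb on each side, covered 19.9 Mb, 0.735% of the chromosome span. Their density of CTCF peaks was below that of the rest of the chromosomes in both lists, by less in MGE. MGE peaks stood at 8.05 per Mb in the windows and 9.49 per Mb in the rest of the chromosomes, a ratio of 0.848. Telencephalon peaks stood at 4.02 and 11.9 per Mb, a ratio of 0.339. The MGE ratio had a counting interval of 0.722 to 0.990 and depended on the peaks used: it was 0.670 for peaks over 244 bp and 0.495 for the wider 50% of the list. Its interval took in 1 when pseudogenes were counted as receptor genes (0.755 to 1.01) and without the largest cluster (0.753 to 1.06). It also did so with gene bodies alone (0.346 to 1.11).

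Members were divided by whether they had a partner in the other list. Peaks that had 1 bp or more in common with a peak called in the other tissue are called shared. In the MGE list 33 of 160 members were shared (20.6%, interval 14.6 to 27.7%), where 58.4% of all MGE peaks were. In the telencephalon list 33 of 80 were shared (41.2%, 30.4 to 52.8%), where 47% of all telencephalon peaks were. Only the MGE interval lay wholly below its list's share. With 1 partner each, however, not many more than 80 of the 160 MGE members could have been shared. The low MGE share is therefore not separate from the member counts. Shared peaks stood at 1.66 per Mb in the windows of each list, 0.298-fold the density of the rest. Sharing is defined by overlap between the lists, so these shared densities are not independent. Peaks without a partner stood at 6.39 per Mb in the MGE list, 1.63-fold the rest, and at 2.36 per Mb in the telencephalon list, 0.376-fold the rest. The MGE list thus held 127 members without a partner and the telencephalon list 47.

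In all, the MGE list held 2.0 times as many members as the telencephalon list, whereas over the rest of the lists it held 0.801 times as many. The member ratio was the same, 90 against 45 peaks, when both lists were limited to peaks over 244 bp, the narrowest MGE width. The rest of the lists then gave 0.928. The member ratio was 1.34, from 47 against 35 peaks, for the wider 50% of each list, where the rest of the lists gave 0.803. With the telencephalon list reduced to its widest peaks, as many as in the MGE list, the member ratio was 2.54 (160 against 63 peaks). The rest of the lists gave 0.996 there.

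Narrow peaks made up much of the MGE count. Peak width is the only property of a peak that the lists give. Of the MGE members 70 of 160 (43.8%, 35.9 to 51.8%) had the narrowest width, 244 bp, against 28.8% in the rest of the MGE list. The median width was 256 bp in members and 301 bp elsewhere. Telencephalon members had a median of 256 bp against 276 bp elsewhere, and 6 of 80 (7.5%) had that list's narrowest width, 150 bp, against 5.73%. Shared members were wide in both lists, with medians of 318 bp in MGE and 324 bp in telencephalon, and those without a partner had medians of 244 and 226 bp.

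Compared within width classes, MGE members were shared less often than other MGE peaks. Telencephalon members, on 13 to 24 peaks per class and with wide intervals, could not be set apart from theirs. Width classes leave the member counts, 160 in MGE and 80 in telencephalon, as they were. The low MGE shares are thus not separate from the small number of possible partners. In the 4 width classes of the MGE list, from narrow to wide, 3.28%, 20.8%, 39.3% and 50% of members were shared, on 61, 53, 28 and 18 peaks. The rest of the MGE list gave 19.6%, 52.4%, 74.0% and 88.5%, each above the interval of the members. The MGE peaks with the minimal width of 244 bp were divided by genome position between the narrowest 2 classes. At exactly 244 bp, 2 of 70 members (2.86%, 0.348 to 9.94%) and 19.3% of other peaks were shared. Telencephalon members gave 12.5%, 23.8%, 68.2% and 76.9%, on 24, 21, 22 and 13 peaks, and the rest of that list gave 11.4%, 34.3%, 62.5% and 79.8%, within the members' intervals in every class.

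**Figure D1:**
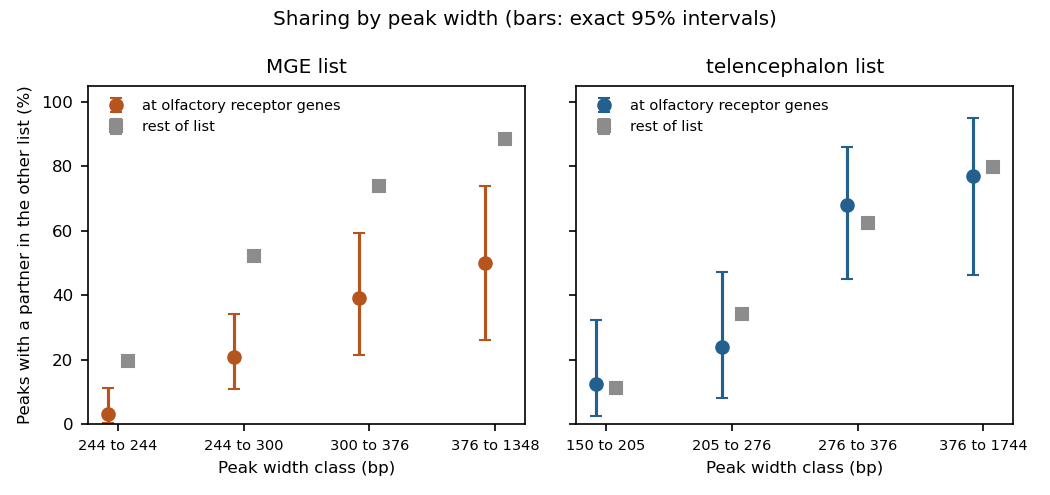
Share of peaks with a partner in the other list (percent) by width class in bp, for peaks at olfactory receptor genes (circles) and the rest of each list (squares), with exact 95% intervals. In the MGE list members lie below the rest in all 4 classes, from 3.28% against 19.6% to 50% against 88.5%, and in the telencephalon list the rest lies within the members' intervals.

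Genome regions far from genes offered another comparison. Regions over 10 kb from any protein-coding gene held 6.99 MGE and 6.71 telencephalon peaks per Mb, nearly equal densities, of which 2.97 and 2.98 per Mb were shared. Receptor windows lay below them in shared peaks (1.66 per Mb) and in telencephalon peaks without a partner (2.36 against 3.73 per Mb), and above them in MGE peaks without a partner (6.39 against 4.02 per Mb). The narrowest width made up 37.1% of MGE peaks in these regions. Windows of the other protein-coding genes, 12.3 MGE and 17.6 telencephalon peaks per Mb, were richer than receptor windows in both lists.

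Vomeronasal receptor genes, the other large arrays of chemoreceptor genes, were placed on the same side. The 230 type 1 genes (Vmn1r) had 24 MGE and 10 telencephalon peaks in their windows (5.04 and 2.1 per Mb), with 1 shared. The 123 type 2 genes (Vmn2r) had 29 and 9 (5.22 and 1.62 per Mb), with 1 shared. The 15 trace amine receptor genes (Taar), a small compact family expressed in the nose, went the other way with 3 and 4 peaks (15.2 and 20.3 per Mb), 2 of them shared, over 0.197 Mb. Narrowest-width peaks were 41.7% of MGE peaks at Vmn1r genes and 41.4% at Vmn2r genes, close to the 43.8% at olfactory receptors.

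**Figure D2:**
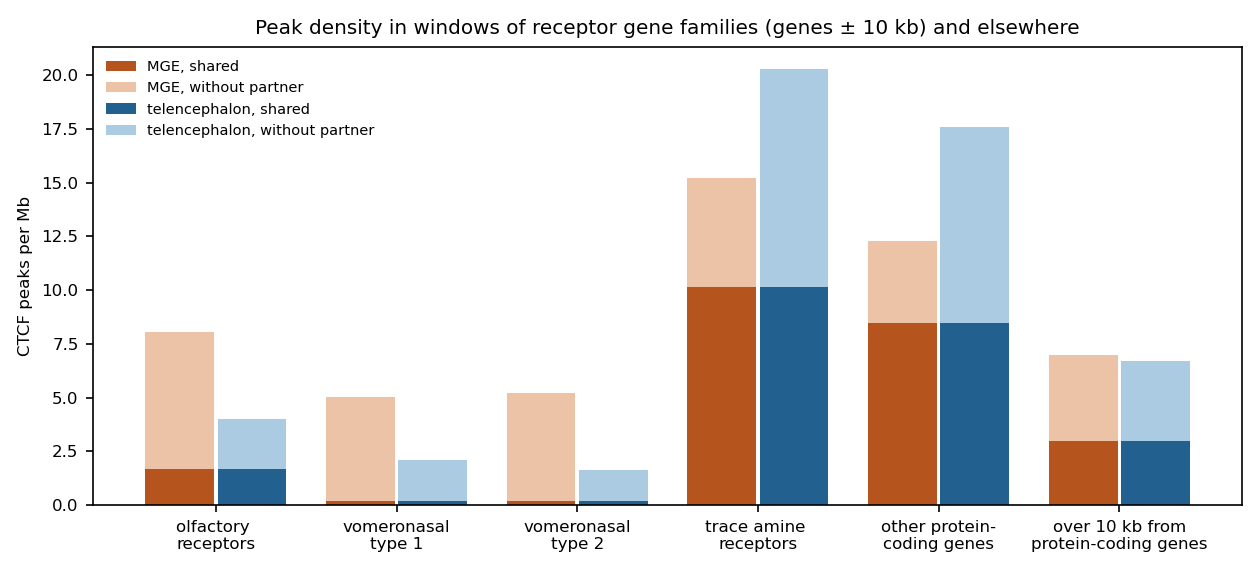
CTCF peaks per Mb, divided into shared peaks (dark) and peaks without a partner (light), in the windows of chemoreceptor families and of other protein-coding genes and in regions over 10 kb from protein-coding genes, for the MGE (brown) and telencephalon (blue) lists. Olfactory receptor windows stand at 8.05 and 4.02 peaks per Mb with 1.66 shared, and windows of other protein-coding genes at 12.3 and 17.6.

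Few receptor genes had a peak near them. An MGE peak lay in or within 10 kb of 179 of 1106 receptor genes (16.2%, 14.1 to 18.5%), where 51.3% of all protein-coding genes had one. A telencephalon peak did so for 86 (7.78%, 6.27 to 9.51%), where 61.3% of all protein-coding genes had one. Receptor genes lie side by side and can have the same peak, so these intervals are too narrow. Both lists had a peak for 44 receptor genes, the MGE list alone for 135, the telencephalon list alone for 42 and neither for 885 (80.0%, against 30.8% of other protein-coding genes). A shared peak lay in or within 10 kb of 40 receptor genes (3.62%), against 44.3% of other protein-coding genes. The median receptor gene lay 48776 bp from the nearest MGE peak and 123474 bp from the nearest telencephalon peak, and the median of other protein-coding genes was 7868 and 2456 bp. Gene length differs between these sets, and a longer gene has a longer window in which a peak can lie. Merged windows covered 19.9 Mb for the 1106 receptor genes and 1269 Mb for the 20777 other protein-coding genes. The shares of genes were not adjusted for this, so the densities per Mb given above are the more even comparison.

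Member peaks did not gather at receptor gene ends. Midpoints lay within 1 kb of an end in 21 of 160 MGE members (13.1%, 8.31 to 19.4%) and 5 of 80 telencephalon members (6.25%, 2.06 to 14%), and such end zones made up 17.3% of the window bases, within the MGE interval and above the telencephalon one. Over all peaks, 8.81% of MGE midpoints and 11.9% of telencephalon midpoints lay within 1 kb of an end of a protein-coding gene. The gene table gives no exons, so exons and introns were not separated. Midpoints inside receptor genes numbered 12 in MGE and 5 in telencephalon, 7.5% and 6.25% of members, and the genes made up 10.6% of window bases. Of these 21 and 5 gene-end members, a single pair was shared. It lay inside Olfr1358, at chr10:78520722-78520965 in MGE (244 bp) and chr10:78520699-78520932 in telencephalon (234 bp). The shared peak inside Olfr1393 (chr11:49271334-49271615 in MGE) lay over 1 kb from its ends, and Mgat1, a glycosyltransferase gene, stood 8307 bp away.

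Shared members were denser at the margins of the receptor arrays than within them. In the outer 10 kb beyond the outermost genes of a cluster, 12 of 16 MGE members (75%, 47.6 to 92.7%) and 12 of 27 telencephalon members (44.4%, 25.5 to 64.7%) were shared. Between the outermost genes, 21 of 144 MGE members (14.6%, 9.26 to 21.4%) and 21 of 53 telencephalon members (39.6%, 26.5 to 54.0%) were. The density of shared peaks was 10.9 per Mb in the outer 10 kb and 1.12 per Mb between the genes. MGE peaks without a partner ran the other way, at 3.64 per Mb in the outer 10 kb and 6.55 per Mb between the genes, and telencephalon ones stood at 13.6 and 1.70 per Mb.

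The few window bases near another protein-coding gene held 13 of the 33 shared peaks. Only 0.827 Mb of the windows lay within 10 kb of such a gene, and this part had 16 MGE and 24 telencephalon members, 13 of them shared in each list (81.2% and 54.2%), or 15.7 shared peaks per Mb. The remaining 19.1 Mb had 144 and 56 members, 20 of them shared in each list (13.9% and 35.7%), or 1.05 shared peaks per Mb. Shared members of the first kind lay near Gabbr1, a GABA receptor gene (chr17:37083253-37083570 in MGE, 8948 bp away and 1621 bp from Olfr90), and over Stx3, a syntaxin gene (chr19:11819956-11820240 in MGE, 7837 bp from Olfr1417). Others lay near the inflammasome gene Nlrp3 (chr11:59569408-59569657 in MGE, 2453 bp away) and near Skp1, a subunit of a ubiquitin ligase (chr11:52220460-52220721 in MGE, 9801 bp away). These 4 were named after their values were seen, and all 4 also lay in the outer 10 kb beyond a cluster's outermost genes. Position at a margin and nearness to another gene thus overlap, and they were not separated here.

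Peak density stepped at the border of the larger clusters. The 23 clusters of 10 or more genes held 998 of the 1106 receptor genes. In the first 100 kb outside them the density was 15.7 MGE and 23.04 telencephalon peaks per Mb, with 54 of 72 and 55 of 106 peaks shared. Shared density in the steps from 100 to 500 kb outside was 8.04 to 9.78 per Mb in both lists. In the first 100 kb inside, peak density was 5.43 and 4.57 per Mb, with 10 of 25 and 10 of 21 shared. From 100 to 200 kb inside, MGE density was 7.41 and telencephalon density 6.06 per Mb, with 16 of 33 and 16 of 27 peaks shared. Shared density in that class was 3.59 per Mb, above the 2.17 per Mb of the first 100 kb inside. Over 200 kb inside, MGE density was 7.92 per Mb and telencephalon density 2.75 per Mb. MGE peaks without a partner there stood at 6.54 per Mb, above the 2.61 to 4.35 per Mb of the 100 kb steps outside, whereas telencephalon ones stood at 1.37 per Mb, below their 8.04 to 11.1 per Mb outside. These distance classes were chosen after the data had been seen and include cluster bases over 10 kb from a receptor gene.

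**Figure D3:**
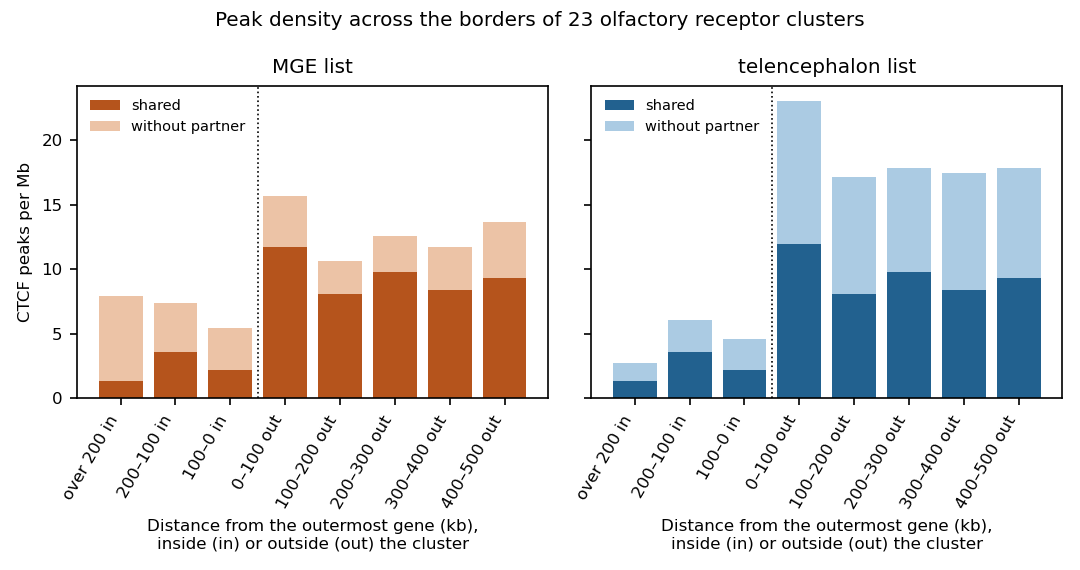
Peaks per Mb by distance in kb from the outermost gene of the 23 clusters of 10 or more genes, inside (left of the dotted line) and outside, for each list, with shared peaks dark and those without a partner light. Shared density falls from 11.7 and 12.0 per Mb just outside to 2.17 per Mb just inside in both lists. From 100 to 500 kb outside it is 8.04 to 9.78 per Mb. MGE peaks without a partner are densest deep inside, at 6.54 per Mb.

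The distance from a cluster end to the nearest shared peak beyond it varied widely. Over the 46 ends of these clusters, the nearest shared MGE peak beyond the outermost gene lay at a median of 68395 bp (interquartile range 35280 to 137428 bp). It lay within 10 kb of 5 ends, within 50 kb of 17 and within 100 kb of 33, and over 200 kb away from 8. A shared peak within 50 kb stood beyond both ends of 3 clusters, beyond 1 end of 11 and beyond neither end of 9. Distances from other genome positions were not computed, so whether shared peaks are rarer or commoner at these ends was not tested. The density of shared MGE peaks in the first 100 kb outside was 11.7 per Mb.

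Clusters of different size differed. In the 23 larger clusters the MGE list had 135 peaks and the telencephalon list 54 (7.61 and 3.04 per Mb of windows), with 23 shared. MGE peaks were the more numerous in 17 of these clusters, telencephalon peaks in 5, and numbers were equal in 1. In the 32 clusters of fewer than 10 genes there were 25 MGE and 26 telencephalon peaks (11.7 and 12.2 per Mb), with 10 shared. MGE peaks were the more numerous in 5 of these smaller clusters, telencephalon peaks in 10, and numbers were equal in 17. Summed counts thus showed an MGE excess in the larger clusters and not in the smaller ones. Single smaller clusters did have one, such as Olfr164 to Olfr171 with 6 MGE peaks and 0 telencephalon peaks. Over the rest of the lists the MGE list held 0.801 times as many peaks. The difference between these classes was not tested. MGE density lay below that of the rest of the same chromosome in 19 of 23 larger clusters and telencephalon density in 22 of 23. No peak of either list lay in the windows of 14 clusters, which held 23 genes in all and at most 5 genes each. The span of the 5-gene cluster from Olfr211 to Olfr215 did hold 1 telencephalon peak, over 10 kb from its receptor genes.

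**Figure D4:**
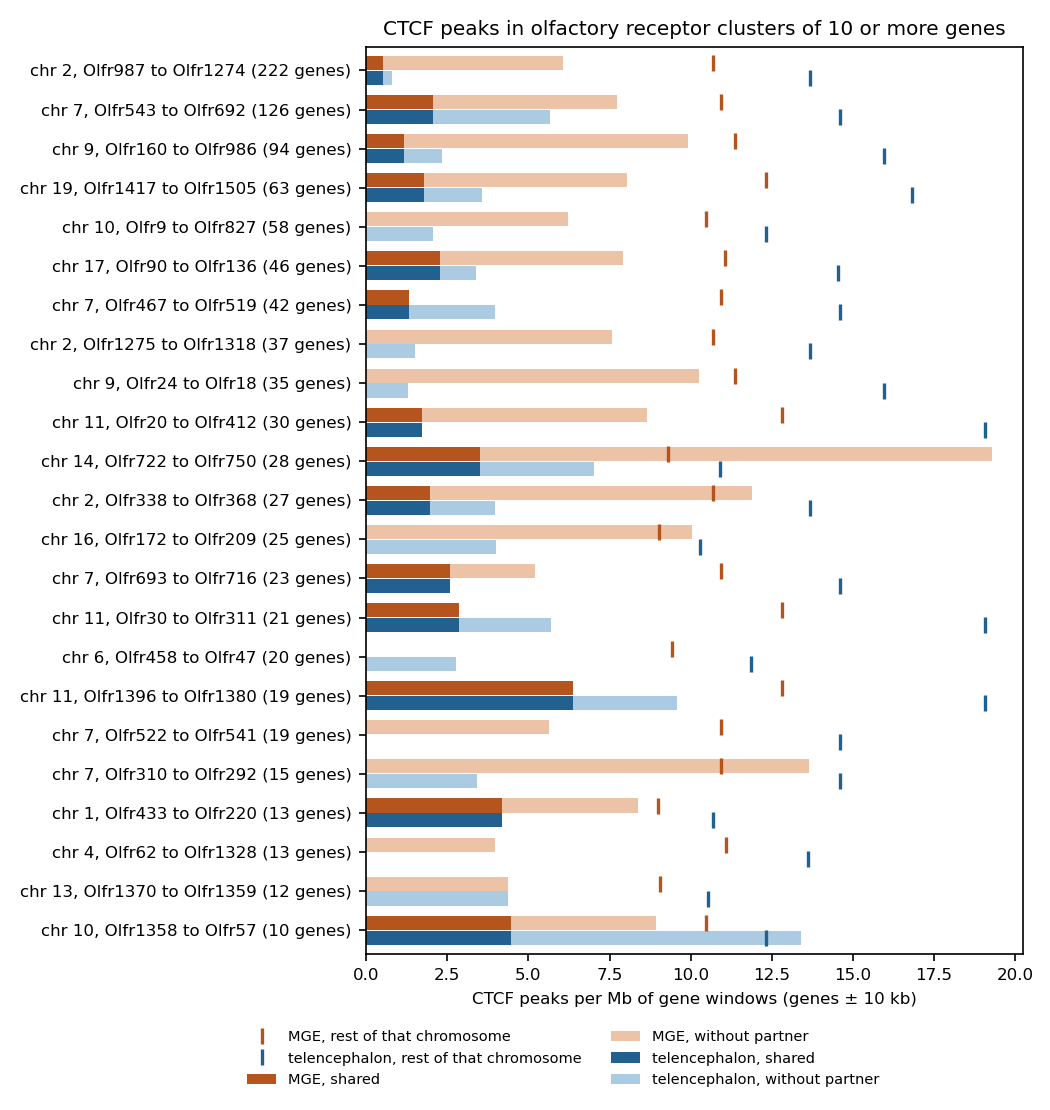
CTCF peaks per Mb of gene windows in each of the 23 clusters of 10 or more genes, MGE above telencephalon in each pair, shared peaks dark and those without a partner light, with ticks for the density in the rest of the same chromosome. The telencephalon bars lie below their ticks in 22 clusters and the MGE bars in 19.

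The windows of the largest cluster held few telencephalon peaks. It held 222 genes from Olfr987 to Olfr1274 (chr2:85330967-90401674, 5.07 Mb). Its windows had 23 MGE peaks (6.08 per Mb) and 3 telencephalon peaks (0.793 per Mb), with 2 shared. The rest of chromosome 2 had 10.7 and 13.7 per Mb. Of the MGE peaks 11 were 244 bp wide. Its whole span held 27 and 9 peaks, 4 of them shared in each list. The longest stretch of the cluster with no peak, counted over its whole span, was 645 kb in MGE and 1892 kb in telencephalon. The shared pairs lay near Olfr1009 (chr2:85725862-85726116 in MGE, 255 bp, and chr2:85725560-85726096 in telencephalon, 537 bp) and near Olfr1066 (chr2:86464680-86465116, 437 bp, and chr2:86464761-86465059, 299 bp). The telencephalon peak without a partner (chr2:89150085-89150256) was 172 bp wide.

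**Figure D5:**
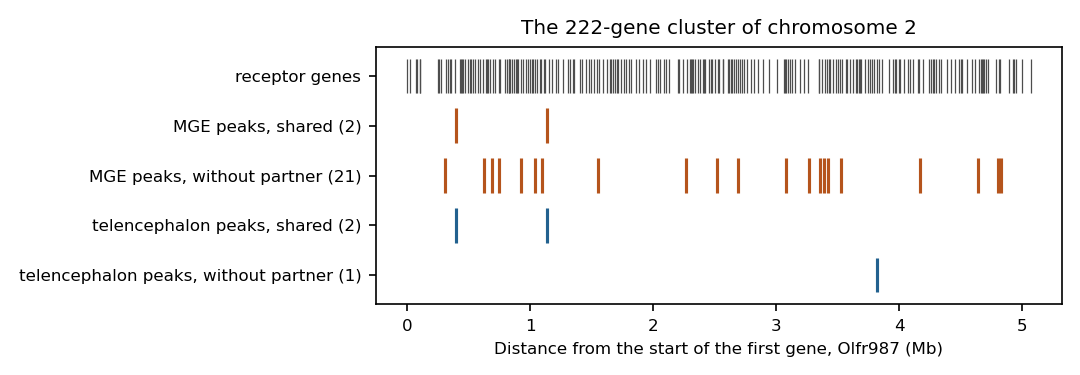
Map of the 222-gene cluster of chromosome 2, with the distance in Mb from the start of Olfr987 on the horizontal axis and a tick for each receptor gene and each member peak, by list and by sharing. The 21 MGE peaks without a partner are spread over the cluster, and the telencephalon list has 3 peaks, 2 of them shared.

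Most of the next largest clusters had the same imbalance, and the array on chromosome 7 had the least of it. The 126 genes from Olfr543 to Olfr692 (chr7:102476773-105369317) had 15 MGE and 11 telencephalon peaks (7.74 and 5.68 per Mb), with 4 shared. This array contains nearly all class I receptors, the class related to fish receptors, and surrounds the beta-globin genes. None of its member peaks lay within 10 kb of a beta-globin gene, of which the table has 7. Receptors assigned to class I by their MOR family synonyms, 122 genes in 2 clusters of chromosome 7, had 15 MGE and 10 telencephalon peaks (8.07 and 5.38 per Mb). The 958 class II genes had 144 and 69 (8.20 and 3.93 per Mb), and 26 genes could not be assigned. Telencephalon peaks lay in or within 10 kb of 13.1% of class I genes (7.69 to 20.4%) and 7.2% of class II genes (5.65 to 9.03%). These intervals overlap, as do those for MGE, 14.8% (8.98 to 22.3%) and 16.7% (14.4 to 19.2%).

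On chromosome 9, the 94 genes from Olfr160 to Olfr986 (chr9:37711348-40188094) had 17 MGE and 4 telencephalon peaks (9.93 and 2.34 per Mb), with 2 shared. The 63 genes from Olfr1417 to Olfr1505 (chr19:11828077-13919972) had 9 and 4 (8.04 and 3.58 per Mb), with 2 shared. The 58 genes from Olfr9 to Olfr827 (chr10:128989914-130211128) had 6 and 2 (6.22 and 2.07 per Mb), none shared. In each of these 3 clusters the telencephalon density was under that of MGE. The 46 genes from Olfr90 to Olfr136 (chr17:37085191-38336097), which adjoin Gabbr1 near the major histocompatibility complex, had 7 and 3 (7.92 and 3.40 per Mb), with 2 shared. The longest peak-free stretch of the 94-gene cluster was 1510 kb in telencephalon and 419 kb in MGE, and that of the 46-gene cluster was 1132 and 216 kb. Over the 23 clusters the median longest stretch was 280 kb in MGE and 564 kb in telencephalon. It was longer in telencephalon in 20 of them. In the whole lists, neighbouring peaks stood a median of 57.3 kb apart in MGE and 30.4 kb in telencephalon. The great majority of these spacings were under 439 kb in MGE and 483 kb in telencephalon. The MGE median of the clusters lay under that limit and the telencephalon median above it. A cluster's value is the longest of its stretches and not a single spacing, so whether these stretches are unusual was not tested.

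Among clusters of 10 or more genes, the 3 with the most peaks per Mb, both lists summed, had 10 to 28 genes; several smaller clusters were denser. The 28 genes from Olfr722 to Olfr750 (chr14:49894258-51071442) had 11 MGE and 4 telencephalon peaks (19.3 and 7.01 per Mb), with 2 shared. The MGE peaks of both shared pairs lay 6067 and 7589 bp from Rnase12, a ribonuclease A family gene. The 10 genes from Olfr1358 to Olfr57 (chr10:78498183-79035802) had 2 and 3 (8.92 and 13.4 per Mb), with 1 shared, and were the only larger cluster whose telencephalon density exceeded that of its chromosome (12.3 per Mb). The 15 genes from Olfr310 to Olfr292 (chr7:86268730-86695384) had 4 and 1 (13.7 and 3.42 per Mb), none shared, and 3 of the 4 MGE peaks were 244 bp wide.

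Among clusters of 10 or more genes, the 3 with the fewest peaks per Mb held 1 to 4 peaks each in both lists together. The 20 genes from Olfr458 to Olfr47 (chr6:42460076-43236575) had no MGE peak and 1 telencephalon peak (2.78 per Mb). The whole span of that cluster held 6 peaks in each list, 5 of them shared, and the shared ones lay over 10 kb from its receptor genes. The 13 genes from Olfr62 to Olfr1328 (chr4:118665519-118934840) had 1 MGE peak and no telencephalon peak. The 42 genes from Olfr467 to Olfr519 (chr7:107814586-108894405) had 1 MGE peak, which was shared, and 3 telencephalon peaks, and 973 kb of this cluster was free of telencephalon peaks. Binding under the calling limit leaves no peak, so CTCF may be present in an empty stretch.

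The widest shared members lay between receptor genes or just beyond the last one. In MGE they were near Olfr427 (chr1:174103719-174104258, 540 bp), Olfr514 (chr7:108814735-108815202, 468 bp) and Olfr412 (chr11:74371702-74372145, 444 bp). Next came the peak near Olfr1066 given above, one near Olfr750 (chr14:51063309-51063732, 424 bp) and one near Olfr1410 (chr1:92611103-92611518, 416 bp). Their distances to the named receptor gene ran from 2296 to 9863 bp, so none lay at a gene end. In telencephalon the widest was that near Olfr1009 (537 bp), followed by peaks near Olfr155 (chr4:43861085-43861581, 497 bp), Olfr412 (chr11:74371581-74372042, 462 bp), Olfr514 (chr7:108814745-108815200, 456 bp), Olfr750 (chr14:51063334-51063761, 428 bp) and Olfr159 (chr4:43763421-43763847, 427 bp). Among the pairs named in this paragraph, widths of partners were close near Olfr514, Olfr412 and Olfr750 and differed more at the others. Some pairs not named here were also close, such as 288 and 291 bp near Olfr713. The MGE and telencephalon widths were 540 and 192 bp near Olfr427, 437 and 299 bp near Olfr1066, 416 and 282 bp near Olfr1410, and 255 and 537 bp near Olfr1009.

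The 4 widest members without a partner in each list are given as a description. In MGE they lay near Olfr135 (chr17:38206584-38207115, 532 bp), Olfr914 (chr9:38614905-38615421, 517 bp), Olfr733 (chr14:50299630-50300134, 505 bp) and Olfr860 (chr9:19843970-19844456, 487 bp), with the nearest protein-coding gene of another kind at 57780 to 209359 bp. The Olfr733 peak, 300 bp from the gene, was among the gene-end members. In telencephalon the widest lay beyond the last receptor gene of its cluster, 5422 bp from H2bc13, a histone gene (chr13:21709714-21710289, 576 bp), followed by peaks near Olfr1414 (chr1:92521135-92521646, 512 bp), Olfr54 (chr11:51032759-51033195, 437 bp) and Olfr470 (chr7:107841780-107842154, 375 bp). For these 4 the nearest gene of another kind lay 5422 to 47310 bp away.

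Genes for factors that act on receptor choice or traffic lie outside the arrays. Of 14 such genes, 10 had an MGE peak and 12 a telencephalon peak in the gene or within 10 kb, where 51.3% and 61.3% of all protein-coding genes had one. A shared peak was found for 9 of the 14, against 44.3% of protein-coding genes that are not olfactory receptors. Lhx2 and Ldb1, which encode a homeodomain protein and its cofactor at receptor enhancers, each had 1 MGE and 2 telencephalon peaks, with 1 shared. Bptf, a chromatin remodelling subunit, had 4 in each list, with 3 shared. Rtp1 and Rtp2, which help receptors reach the cell surface, had none. These genes are few and of other lengths than receptor genes, and no comparison with them was tested.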

How the data were processed

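The authors' deposited lists give the chromosome, start and end of each CTCF peak (1 list per tissue) and no other value. The build, mm10, and the tools MACS2 2.1.1.20160309 and Bowtie2 2.3.2 stand in the submitters' processing notes. Threshold, control and filters of the peak calling were not given in the sources used here. The analysis kept peaks of the autosomes and of X and Y and left out 85 MGE and 93 telencephalon peaks on other sequences. Gene positions came from the RefSeq table on GRCm38.p6, and coordinates are 1-based. Windows of 10 kb around the genes were merged to compute peaks per Mb. The chromosome span was taken between the outermost peaks and genes. A further 4 protein-coding genes with related symbols were counted neither as members nor as other genes. Class I was taken as MOR families 1 to 42 from the table's synonyms, since it lacks the newer family names, and this replaced the planned use of those names. No promoter met the planned rule of a peak in both lists. Distance classes, peak-free stretches and cluster ends were chosen after seeing the data. Python 3.11.15, pandas 2.3.3 and SciPy 1.17.1 were used, and the overlap routines were tested on simulated data. Named clusters were the 6 with the most genes and, among those of 10 or more genes, the 3 densest and 3 poorest. Named peaks were the 6 widest shared and 4 widest unshared members per list. Members and lists were chosen with earlier results of these data known.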

Additional observations from a re-analysis of the deposited data

How the results depend on the processing

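Member counts, the shared share, the share of receptor genes with a peak, the density ratio, the gene-end share and the number of clusters were recomputed under other settings; promoter, width-class, family, receptor-class, margin and single-cluster values were not. Of 90 values 51 stayed within the interval of the main value (counts within 1.5 times), 39 moved and none changed side of a ratio of 1. With 5 kb windows there were 92 MGE and 37 telencephalon members, 12.0% and 29.7% of them shared, near 8.05% and 3.71% of receptor genes. The telencephalon density ratio was 0.249, and 22.8% of MGE members lay at gene ends. With gene bodies alone there were 13 and 5 members at 1.18% and 0.452% of genes, and 53.8% and 40.0% of them lay at ends. The density ratios were then 0.649 in MGE (interval 0.346 to 1.11) and 0.201 in telencephalon. With 50 kb windows there were 283 and 209 members near 51.1% and 27.4% of genes, 34.98% of MGE members were shared, the telencephalon ratio was 0.517, and 7.42% of MGE members lay at ends. The wider 50% of each list gave 47 and 35 members near 5.15% and 3.62% of genes, 38.3% of MGE members shared and an MGE ratio of 0.495. Peaks over 244 bp, a choice made after seeing the data, gave 90 and 45 members near 9.58% and 4.61% of genes, 28.9% and 57.8% shared and an MGE ratio of 0.670. Both of these width limits also removed possible partners. The shared share over all peaks was not recomputed under them, so 38.3%, 28.9% and 57.8% cannot be set beside the shares of the full lists. Gene ends of 500 bp held 7.5% of MGE members, and ends of 2 kb held 25.0% of MGE and 16.2% of telencephalon members. Each setting changes the bases or peaks counted, and why the values moved was not tested. Leaving out the largest cluster, also chosen after seeing the data, moved no value. No paired analysis was possible because each group has 1 library. Read depth is unknown, so a weak site cannot be told from a missing one.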
